A study of Mus musculus with 441 samples.

Results

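The cells described here are the 94 mouse embryonic stem cells (mESCs) that had been grown in 2i+LIF, out of 361 single mESCs in the study. They were taken by the name that starts their columns in the single-cell table, which goes on with a well, each used once, so they are called 1 plate here, and no measured value was used to choose them. All cells derive from v6.5, a mouse embryonic stem cell line. The other single mESCs were wild-type v6.5 cells on a pair of serum+LIF plates, with 90 and 93 cells, and 84 Dgcr8KO cells of v6.5 background, which lack mature microRNAs and were also grown in serum+LIF. LIF was thus present in every culture, and the comparison of the 2i cells with the serum cells asks what the inhibitors in place of serum leave of the expression programme and of the variation between cells. Bulk RNA of 2i and serum cultures and ChIP-seq with 1 library per mark and condition were measured as well. Cells had been captured on C1 microfluidic chips, and their RNA was amplified with the SMARTer Ultra Low kit, made into Nextera XT libraries and sequenced with paired reads of 25 bases.

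2i stands for a pair of small-molecule inhibitors, of the kinase MEK, which activates ERK, and of the kinase GSK3, whose inhibition stabilises beta-catenin. Blocking ERK removes a signal that pushes embryonic stem cells towards differentiation, and LIF acts through its receptor and Stat3 to sustain self-renewal. In this medium the cells are known to adopt a naive state, close to the epiblast before implantation, with low DNA methylation and raised expression of naive transcription factors. Serum cultures are known for cells that differ in their levels of such factors, so a plate of 2i cells can be asked which genes still differ from cell to cell.

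Expression is given in TPM, the share of a gene in all transcripts of a cell, scaled to a fixed total and corrected for transcript length. It keeps no depth, so the number of reads behind each value is unknown. The 2i cells had between 8122 and 10739 genes at a TPM of at least 1, with a median of 9974, against medians of 7780 and 7648 on the serum plates and 9317.5 on the Dgcr8KO plate. The median Spearman correlation between a pair of 2i cells was 0.748, beside 0.746 and 0.758 on the serum plates and 0.622 on the Dgcr8KO plate. It was taken over the 11087 genes whose mean TPM over the 4 plates reached 1. No pair of cells had identical values. In the 2i table no gene was above 0 in fewer than 5 cells, and the same held on the Dgcr8KO plate. On the serum plates 60 and 50 genes were above 0 in 1 to 4 cells. Genes seen in very few 2i or Dgcr8KO cells may therefore be listed at 0. Of the 22392 gene names used, 7855 were listed at 0 in every 2i cell. Of these, 6452 were also in the bulk table, and 22 of them reached a TPM of 1 in the bulk 2i library.

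The 5 genes that mark the cells were detected in most of them and separated the plates to different degrees. Esrrb, an orphan nuclear receptor of the naive network, lay between 19.7 and 95.1 TPM in the 94 cells, with a median of 47.05. On the serum plates it lay between 0 and 15.2 and between 0 and 17.6 TPM. The highest serum cell was therefore below the lowest 2i cell for Esrrb. Tcl1, a co-activator of the kinase Akt, lay between 55.6 and 565 TPM with a median of 274 in 2i. Its serum medians were 12.45 and 11.7 TPM with highest cells at 264 and 82.7, so a serum cell could reach the range of the 2i cells. Klf4, a Krüppel-like factor that is a direct target of LIF signalling, lay between 2.8 and 140.98 TPM with a median of 41.5. Its serum cells had medians of 2.75 and 3.57 TPM and reached 21.3 and 27.5, and they overlapped the lowest 2i cells.

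The remaining pair of markers was absent from some 2i cells. Prdm14, a regulator that represses FGF signalling and DNA methyltransferases, was at a TPM of at least 1 in 81 of 94 cells, 86.2% with an exact (Clopper-Pearson) 95% interval of 77.5 to 92.4%, which covers counting error only. It lay between 0 and 56.7 TPM with a median of 9.09 TPM, and it was detected in 16.7% and 20.4% of serum cells. Dazl, an RNA-binding protein of germ cells, was detected in 83 of 94 cells (88.3%, interval 80.03 to 94.01%). Its TPM lay between 0 and 287 with a median of 23.85, and 20% and 18.3% of serum cells had it. The plot of the markers by cell shows these ranges.

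**Figure D1:**
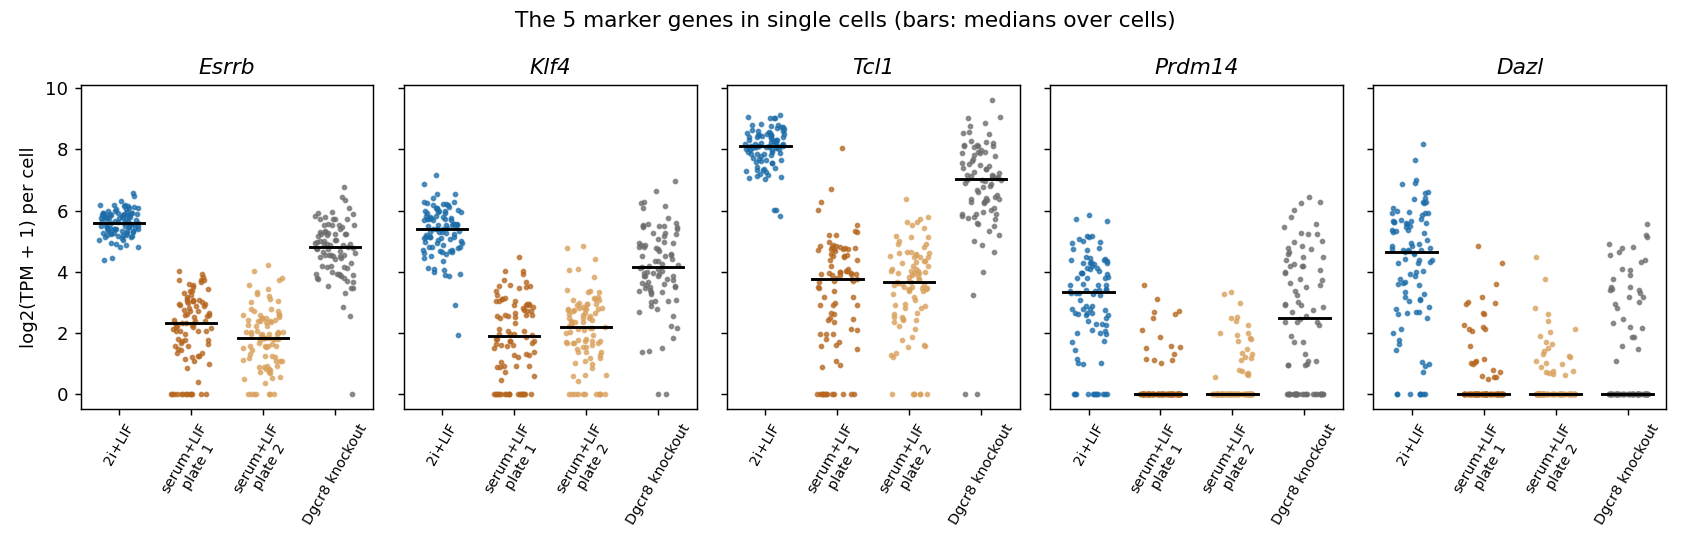
log2(TPM + 1) of Esrrb, Klf4, Tcl1, Prdm14 and Dazl in every single mESC, by plate; each point is a cell and each bar the plate median. All 94 2i cells held Esrrb, Klf4 and Tcl1, while 81 held Prdm14 and 83 held Dazl, and the medians of the Dgcr8KO cells, grown in serum+LIF, lay above those of the serum cells for the first 4 genes.

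To compare levels, the mean TPM of each plate was put on the scale log2(mean TPM + 1), centred on the median gene and fitted with limma over 4 plates (2 serum, 1 2i, 1 Dgcr8KO). A gene with a Benjamini-Hochberg adjusted p under 0.05 over the 11087 genes tested was called. Centring was needed because the median gene of the 2i plate was 1.24 higher on the log2 scale than on the serum plates. Rises and falls below are therefore relative to the median gene. In 2i 1807 genes (16.3% of those tested) rose and 2106 (19%) fell. Of the genes that fell, 547 had a higher TPM in 2i than on both serum plates and 58 were listed at 0 on all of these plates, so that only the shift separates them. Without centring 4223 genes were higher and 196 lower, 95.6% higher in place of 46.2%. The 2i group has 1 plate, whose spread is assumed to be that of the serum pair, and no source says that plates are separate cultures, so p-values reflect only how far these plates lie apart, which may be technical.

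All 5 markers rose in 2i. The log2 difference of Esrrb was 2.07 with a standard error of 0.244, that of Tcl1 2.78, of Klf4 1.84, of Prdm14 1.70 and of Dazl 2.86, with limma adjusted p-values between 4.25e-05 for Dazl and 9.11e-04 for Prdm14. With quantile normalisation of the plate means Klf4 and Prdm14 lost the call, as did Tbx3, Pecam1, Fgf4, Tet2, Sox2, Dppa2, Dppa4 and Utf1 among the genes below and Nupr1, Crxos1, Krt8 and Plac1. Mean TPM in 2i and on the serum plates were 48.98 against 4.65 and 3.46 for Esrrb, and 286 against 17.98 and 15.2 for Tcl1. The Dgcr8KO cells, which had no inhibitors, had means of 30.8 for Esrrb, 24.1 for Klf4, 164.7 for Tcl1, 12.8 for Prdm14 and 5.49 TPM for Dazl. These cells stood above both serum plates for all 5 genes, and for Prdm14 at the 2i level. A difference between the 2i plate and the serum plates can therefore not be assigned to the medium from these values alone.

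Over the whole list of naive pluripotency genes, 20 were tested, 9 rose and 2 fell, and the median difference was 0.64 where that of all genes was -0.005. Beside the markers, the genes that rose were Tbx3, a T-box factor downstream of LIF, Nr5a2, a nuclear receptor that binds regulatory DNA of Pou5f1, Pecam1, a surface adhesion molecule, Fgf4, the FGF ligand made by the epiblast, and Tet2, an enzyme that oxidises 5-methylcytosine. Tbx3 lay between 4.26 and 39.5 TPM in the 2i cells and had a mean of 19.3 against 1.46 and 1.09 in serum and 14.4 in Dgcr8KO cells, a difference of 1.91. Dppa2 and Dppa4, a pair of chromatin factors that act together, fell by 0.99 and 1.40 relative to the median gene, but Dppa2 had a higher TPM in 2i (42.3 against 36.1 and 34.5) and its difference was 0.25 without centring. The other 9 members tested did not pass. Among them was Nanog, a homeobox factor of the core network, at 355.6 to 1751 TPM in 2i with a mean of 918 against 820 and 1710 in serum. Its difference lay between -2.27 and -0.95 when either serum plate was left out, so the serum plates themselves stood 1.32 apart. Gbx2 was not tested because of its low level.

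Of the 7 core pluripotency genes, Sox2 rose, Utf1 and Lin28a fell, and 4 did not pass. Sox2, the partner of Oct4 on DNA, had 41.3 TPM against 7.69 and 8.47, a difference of 0.97. Utf1, a chromatin factor of undifferentiated cells, had a mean of 50.8 TPM against 259 and 158.9, and 265 in Dgcr8KO cells, a difference of -3.23. Lin28a, an RNA-binding protein that blocks let-7 maturation, was at a TPM of at least 1 in 46 of 94 2i cells and in every serum cell. It reached 36.2 TPM in 2i and 175.4 and 154.3 TPM in serum, and its difference was -3.84. Of the Dgcr8KO cells 50% had Lin28a. The median difference of the 7 genes was -1.20, which turned to 0.04 without centring. Pou5f1, which encodes Oct4, was present in every 2i cell at 50.9 to 263 TPM, and its difference of 0.34 had an adjusted p of 0.42.

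Most targets and feedback inhibitors of ERK fell relative to the median gene. Of 12 tested members 0 rose and 9 fell, with a median difference of -1.74, and the median stayed below 0 without centring (-0.49) and with quantile normalisation (-1.38). In plain TPM 7 of the 12 lay below both serum plates and 5 above both, 2 of the latter among the 9 that fell. Myc, the growth regulator, and Spry4, a feedback inhibitor, were listed at 0 in all 94 cells, which may hide up to 4 cells above 0, since no 2i gene was above 0 in fewer than 5. Their serum means were 13.8 and 11.7 TPM for Myc, whose Dgcr8KO mean was 0.862 TPM, and 2.76 and 2.24 for Spry4. Dusp6, the phosphatase that inactivates ERK, was at a TPM of at least 1 in 23 of 94 cells against 78 of 90 and 82 of 93 in serum. The ETS factor Etv5 did not pass, at 6.34 to 158.1 TPM and a difference of 0.34. Spry2, another feedback inhibitor, fell by 1.11 on the log2 scale although its mean TPM of 25.1 was above the serum means of 23.4 and 22.02.

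Among targets of BMP and Nodal, 3 of 9 fell and 2 rose. The genes that fell were Id1, Id2 and Id3, inhibitors of differentiation that BMP signalling in serum induces. Id1 was at a TPM of at least 1 in 11 of 94 2i cells, between 0 and 32 TPM, whereas its serum cells had medians of 49.65 and 24.8 and reached 729 and 478 TPM. The difference of Id1 was -6.37, that of Id3 -5.39 and that of Id2 -2.94, with adjusted p-values of 2.75e-06, 4.50e-06 and 7.08e-05 from limma. Dgcr8KO cells, in serum+LIF, had means of 11.4, 23.7 and 15.7 TPM for Id1, Id3 and Id2. Lefty2, a Nodal antagonist, and Smad7, an inhibitory Smad, rose by 0.88 and 0.84. In the Wnt list 4 of 13 genes were high enough to be tested. Tcf7 and Tnfrsf19 rose, and Lef1, a nuclear partner of beta-catenin, fell by 1.18 relative to the median gene although its mean of 2.52 TPM was above the serum means of 2.30 and 2.45. Axin2, a direct target of beta-catenin, was detected in 54 of 94 2i cells and listed at 0 in all serum cells.

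The LIF pathway held the gene with the largest fall. Lifr, the receptor chain for LIF, lay between 5.94 and 74.1 TPM in 2i with a median of 31.9. The serum medians were 1756 and 1303 TPM and the lowest serum cell had 260 TPM, so no 2i cell reached the serum range. The difference was -6.68 with a standard error of 0.365. In Dgcr8KO cells the median was 56.55 TPM, close to that in 2i although these cells were in serum. In the ChIP window of Lifr, H3K4me3, a mark of active promoters, stood at 130.7 CPM (counts scaled to a common library total) in 2i and 98.9 in serum, and H3K27ac, a mark of active regulatory DNA, at 129.6 and 109.6, so neither mark was lower in 2i. Pim1, a kinase induced by Stat3, and Il6st, the shared receptor chain gp130, rose by 2.83 and 1.27, and the other 5 members, Stat3 included, did not pass.

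Besides Lifr and Id1, the 10 largest falls include Dnmt3l, Trh, Spink3, Krt8, Plac1 and Plac8. Dnmt3l, a cofactor of the de novo methyltransferases, was detected in 18 of 94 2i cells with a mean of 2.59 TPM against 93.1 and 92.1 in serum, a difference of -5.95. Dnmt3a and Dnmt3b, the enzymes themselves, fell by 2.05 and 2.51, while Dnmt1 and Uhrf1, which maintain methylation, rose by 0.77 and 0.80 and Tet1 and Tet2 by 0.73 and 0.90. Of the 13 genes of the methylation machinery 4 rose and 4 fell, and the median difference of -0.08 became 1.17 without centring. Trh, which encodes a releasing hormone, was at a TPM of at least 1 in 7 of 94 2i cells, against 74 of 90 and 82 of 93 serum cells, and fell by 6.39 on the log2 scale. Spink3, a peptidase inhibitor, Krt8, a keratin of simple epithelia, and Plac1 and Plac8, a pair of placenta-associated genes, were listed at 0 in all 94 cells. Serum means were 25.2 and 27.2 TPM for Spink3 and 18.7 and 18.4 for Plac8. Plac1 had 4.33 TPM on the first serum plate and 98.6 on the second, and its difference lay between -8.02 and -3.53 when either serum plate was left out. Another 2 of the 10 largest falls carry clone names only and are not described.

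The largest rises joined a stress-responsive gene, germline genes of the X chromosome and histone H4 genes. Nupr1, a small chromatin protein induced by stress, lay between 16.7 and 1363 TPM in all 94 cells with a median of 330.5 TPM, while 24.4% and 40.9% of serum cells had it. Its serum cells reached 39.4 and 140.7 TPM, so the plates overlapped only at the low end of 2i, and the difference was 5.26. Crxos1, a homeobox gene of the early embryo, was detected in 92 of 94 cells with a mean of 142.8 TPM against 0.484 and 1.24, and rose by 5.05. Dgcr8KO means were 117.1 TPM for Nupr1 and 20.1 TPM for Crxos1. Aurkc, the Aurora kinase of meiosis, was detected in 91 of 94 cells with a mean of 78.9 TPM against 0.198 and 0.382 in serum, a difference of 4.71. In Dgcr8KO cells Aurkc had 82.02 TPM.

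Xlr genes, X-linked relatives of the meiotic chromosome protein Sycp3, were present in most 2i cells and listed at 0 in every serum cell. Xlr3a was detected in 93 of 94 cells with a mean of 84.2 TPM, Xlr3b in 88 with 66.5 TPM, Xlr3c in 89 with 93.2 TPM, Xlr4a in 86 with 43.7 TPM and Xlr4b in 87 with 47.7 TPM. Because both serum plates are at 0, no fold is given. The Xlr genes are near-identical copies, and reads of 25 bases may not separate them. In Dgcr8KO cells Xlr3a, Xlr3b, Xlr4a and Xlr4b were also listed at 0 and Xlr3c had a mean of 4.38 TPM. Of the 4 plates, the 2i plate was thus the only plate with Xlr3a, Xlr3b, Xlr4a and Xlr4b listed above 0. On the Dgcr8KO plate a listing at 0 may hide up to 4 cells. The bulk 2i library held Xlr3a at 51.9 TPM, and the ChIP window of Xlr3a had 10.2 CPM of H3K4me3 in 2i against 1.18 in serum and 1.76 in Dgcr8KO.

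Of 19 tested germline genes 11 rose and 3 fell, with a median difference of 2.22. Most of these genes are known to be silenced by promoter methylation in other cells. A gene was tested if its mean TPM over the 4 plates reached 1. Members at 0 on both serum plates, such as Xlr3a and Xlr3b, could thus enter only by their level on another plate. The count and the median therefore follow in part from this filter. Rnf17, a Tudor-domain protein of germ cells, lay between 42.3 and 406 TPM in 2i, above the serum medians of 5.905 and 7.06 TPM though not clear of the highest serum cells at 112.2 and 68.6, and rose by 2.27. Of the 3 members that fell, Ddx4, Mael and Piwil2, none had a mean TPM below both serum plates. Ddx4, the helicase Vasa of germ cells, had 2.39 TPM in 2i against 3.28 and 2.22. The promoter of Dazl is shown because its CpG dinucleotides, the sites of DNA methylation, are dense and because Dazl is absent from some cells of a plate on which most express it. The RefSeq sequence of build GRCm38.p6 runs from 250 bases before to 50 bases after the start of the gene, chr17:50293571-50293870 on the minus strand, with each CG in capitals.
Dazl: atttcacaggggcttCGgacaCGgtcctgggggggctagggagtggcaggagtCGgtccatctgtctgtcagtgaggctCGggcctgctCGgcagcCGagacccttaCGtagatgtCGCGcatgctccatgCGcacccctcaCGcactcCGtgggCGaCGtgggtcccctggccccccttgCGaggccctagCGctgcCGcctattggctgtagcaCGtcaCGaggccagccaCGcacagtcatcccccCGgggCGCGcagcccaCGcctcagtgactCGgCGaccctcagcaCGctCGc
It holds 28 CpG in 300 bases, where the median of 24 germline promoters matched was 16.5 and that of all 27025 promoters 7. In the ChIP window of Dazl, 2i had 12.18 CPM of H3K4me3 and 51.1 of H3K27ac, serum 2.42 and 31.2, and Dgcr8KO 7.39 and 34.5, with 1 library each.

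Metabolic genes moved as well. Of 30 tested genes of cholesterol and lipid synthesis 20 rose and 3 fell, with a median difference of 1.34 that stayed above 0 under the other scalings (1.30 to 2.59). Scd2, a fatty acid desaturase, lay between 51.7 and 283 TPM in 2i and reached 32.5 and 26.3 TPM in serum, with no overlap between the plates, and rose by 2.83. Fdps, which makes farnesyl diphosphate, rose by 1.54, from 71.6 and 44.96 to 398 TPM. The genes that fell include Srebf2, the transcription factor of the pathway, and Stard4, a carrier of cholesterol. Dgcr8KO means were 451 TPM for Fdps and 44.04 for Scd2. Asns, which makes asparagine, had a lowest cell at 632 TPM in 2i and highest serum cells at 299 and 278.5 TPM, and its difference was 2.66. Ldhb, a lactate dehydrogenase subunit, rose by 2.92 and Ldha, the other subunit, fell by 1.53. Over 20 glycolysis genes 3 rose and 4 fell, and the median of -0.37 turned positive under the other 3 scalings (0.02 to 0.88).

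Other groups were less uniform. Of 17 tested imprinted genes 9 fell and 1 rose (median -1.33), while without centring 3 fell and 6 rose (median -0.08). Plagl1, a zinc finger factor, was the gene that rose, at a median of 34.3 TPM and a lowest cell of 5.22 TPM. Its means were 0.453 and 0.677 TPM in serum. It was listed at 0 in all Dgcr8KO cells, which may hide a few cells above 0. Of 80 genes of cytosolic ribosomal proteins 16 fell and 0 rose with a median of -1.33, but with quantile normalisation 1 rose, 0 fell and the median was 0.03. Of 80 genes of oxidative phosphorylation 8 rose and 2 fell, and both that fell were listed at 0 in 2i and in serum. Of 18 stress genes 6 rose and 7 fell. The genes that rose include Asns, Nupr1, Ddit3, Chac1 and Trib3, all known targets of the integrated stress response, and Gadd45b. Ddit3 was detected in 63 of 94 2i cells with a mean of 23 TPM against 0.536 and 0.725. Among 15 p53 targets 4 rose and 2 fell. Cdkn1a, the inhibitor of cyclin-dependent kinases, rose by 2.53, to 61.1 TPM, while Dgcr8KO cells had 112.9 TPM. Of 42 genes of G2/M and mitosis 8 rose and 0 fell, and of 29 genes of G1/S and replication 3 rose and 4 fell. Over all genes tested 16.3% rose and 19% fell. The share that rose was 19.05% for G2/M, 10.3% for G1/S and 10% for oxidative phosphorylation. The share that fell was 20% for ribosomal proteins and 13.8% for G1/S. The counts of these 4 lists were thus near or below the shares over all genes. The plot of list levels shows the members of 9 of the lists.

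**Figure D2:**
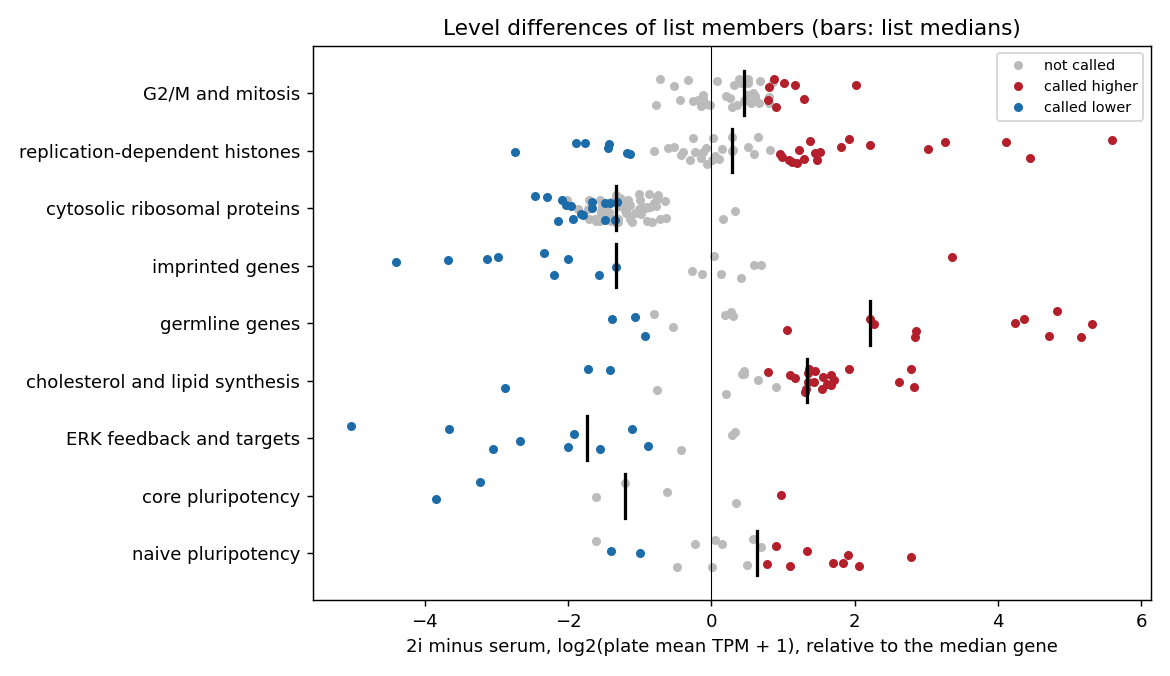
Difference in level between the 2i plate and the serum plates, log2(plate mean TPM + 1) relative to the median gene, for each tested member of 9 gene lists; red points rose, blue points fell, grey points did not pass the test, and black bars are list medians. Of the 9 medians those of germline (2.22) and cholesterol genes (1.34) lie highest and that of ERK targets (-1.74) lowest. Germline members at 0 in serum were tested only by their level on another plate, so the germline median follows in part from the filter. The median of the core list turns positive without centring (0.04) and that of ribosomal proteins with quantile normalisation (0.03).

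Markers of other cell types were counted in each cell, and a cell was said to carry a list when 3 members reached a TPM of 10. Of 94 2i cells 4 carried the primitive endoderm list (4.26%, exact 95% interval 1.17 to 10.54%), 3 the trophoblast list (3.19%, 0.663 to 9.04%) and 0 the mesoderm list, of which 7 of 10 genes are listed at 0. These counts turn on the cutoff: with 3 members at a TPM of 1, or with 2 members at 10, 67 and 38 cells carried the endoderm list and 37 and 12 the trophoblast list, and the intervals cover none of this. Sparc, a matrix protein that is also known from other cells, was present in every 2i cell at 124.6 to 569 TPM and made up most of the endoderm level. The defining markers Gata6, Sox17, Pdgfra, Cdx2 and T were listed at 0 in all 94 cells, as were 12 of 18 endoderm members and 4 of 11 trophoblast members. The summed TPM of the endoderm list lay between 134.2 and 590 in 2i and had medians of 48.7 and 50.1 TPM in serum and 281 in Dgcr8KO. The sum of the trophoblast list lay between 0 and 163.2 TPM in 2i, most of it from Elf5, an ETS factor, and reached 851 and 9572 TPM in serum.

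The primed epiblast list was carried by 47 of 94 cells (50%, 39.5 to 60.5%), beside 34 of 90 and 16 of 93 serum cells and 49 of 84 Dgcr8KO cells. Tead2, a TEAD factor, and Otx2, a homeobox factor of the epiblast, gave most of that sum in 2i, whereas Fgf5, Pou3f1, Sox3 and Cdh2 were listed at 0. Of 10 tested primed genes 7 fell and 2, Tead2 and Zic2, rose, while without centring 1 fell and 4 rose. At the same other cutoffs 94 and 85 cells carried the primed list. The neural list was carried by 15 of 94 cells (84 and 79 at the other cutoffs), most of its level came from Tubb3, a tubulin, and Vim, an intermediate filament protein, and Hes5 and Fabp7 were listed at 0. The fibroblast list was carried by 55 of 94 cells (87 and 93), most of its level came from Fn1 and Lgals1, and Col1a2, Col3a1, Thy1 and Postn were listed at 0, and 4 of 5 tested members fell. The parts of other cell types in the results above were not tested. The two-cell-like list was carried by 0 cells, and its Zscan4 genes were listed at 0 in all 94 cells.

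Variation between the 94 cells was measured as the SD of log2(TPM + 1), less the running median of that SD over the nearest 100 genes in mean level on each side. This excess SD was ranked for 5663 genes whose mean TPM reached 10 and that at least 10% of cells expressed. Its median is 0 by construction and its 95th percentile was 0.68. In 75 genes the excess was at least 1 and in 541 (9.55% of those ranked) at least 0.5. With a pseudocount of 0.1 or 5 in place of 1, 341 and 25 genes reached 1, and a ranking by the squared coefficient of variation shared 17 of the 75. The genes just inside the limit of 1 were Ly6g6e at 1.01, Gstz1 at 1.01 and Alg14 at 1.004, and S100a13 lay just outside at 0.992. Of the 75 genes, 15 were replication-dependent histones, 35 others carried a RefSeq name and 25 a clone or older name. The values describe 1 plate, carry no test, and cannot separate the state of a cell from noise of amplification.

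No naive or core pluripotency gene reached an excess SD of 1. The lower limit of 0.5 was reached by some of them, as by 9.55% of all ranked genes. The median excess SD of 19 ranked naive genes was -0.02, and 2 of the 19 reached 0.5. These were Dppa3, which protects maternal DNA from demethylation, at 0.74 and 6.36 to 1013 TPM, and Nr0b1, a nuclear receptor, at 0.58 and 0 to 256 TPM. Dppa5a, an RNA-binding protein of embryonic stem cells, varied little at 10669 to 22048 TPM (SD of log2 0.22). Of the 5 markers, Dazl had an excess of 0.87, Tcl1 of 0.16, Prdm14 of -0.02, Klf4 of -0.06 and Esrrb of -0.40. Dazl was thus the marker with the most variation for its level and Esrrb the one with the least. Among core genes Utf1 alone passed 0.5 (0.59). The SD of log2 for Esrrb was 0.41 in 2i and 1.16 and 0.99 on the serum plates, where its level was low, and the excess SD of no naive or core gene was called different between 2i and serum.

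Replication-dependent histones were the most variable list, with a median excess SD of 0.92 over 33 ranked members, 22 of them at 0.5 or more and 15 at 1 or more. These genes supply the histones that package new DNA in S phase, and their mRNAs end in a stem-loop in place of a poly(A) tail. Hist1h2ah was at a TPM of at least 1 in 47 of 94 cells and lay between 0 and 686 TPM with a median of 3.955 TPM, an excess of 2.25. Hist1h4c, detected in 73 cells, had an excess of 1.89 and reached 410 TPM. Hist1h2ak, Hist1h2ab, Hist1h4k, Hist2h2ac, Hist4h4, Hist2h3b and Hist2h4 had between 1.86 and 1.38, and all 9 of these histones were among the 25 most variable genes. The serum plates had excess SDs of 2.10 and 1.97 for Hist1h2ah and 0.48 and 0.49 for Hist1h4c, so Hist1h2ah varied as much there.

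**Figure D3:**
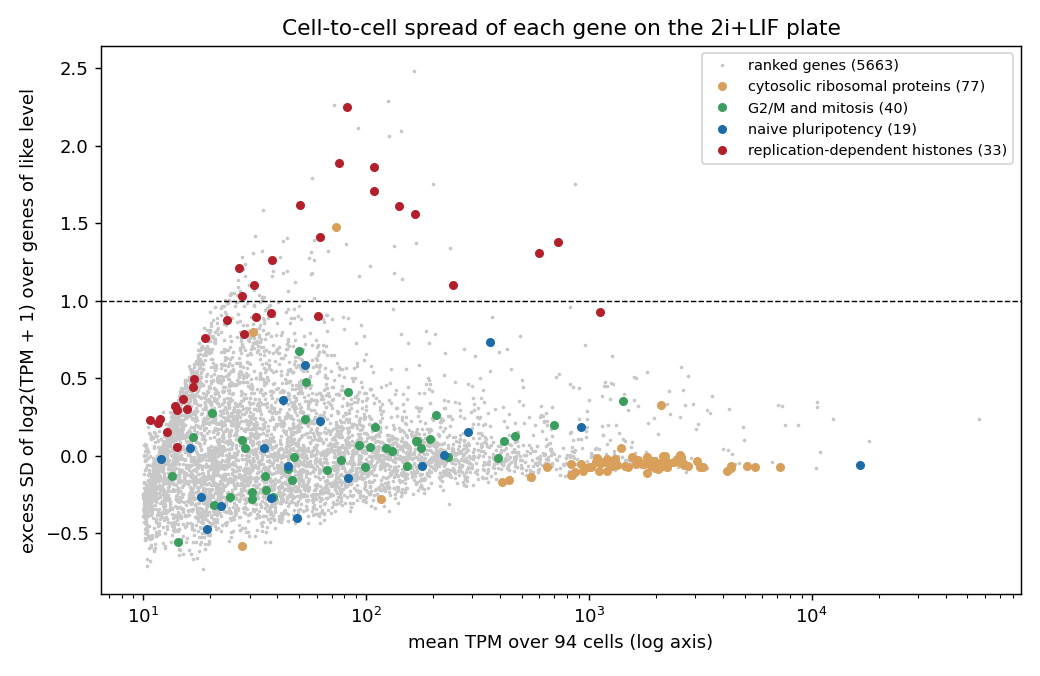
Excess SD over the 94 2i cells of log2(TPM + 1), the SD above that of genes of like level, against the mean TPM of the gene (log axis) for the 5663 ranked genes; colours mark 4 gene lists and the dashed line an excess of 1. The histones lie high with a median excess of 0.92, and the naive genes lie around 0 with a median of -0.02.

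Germline genes came next, with a median excess of 0.83 over 12 ranked members and 7 of them at 0.5 or more. Rpl10l, a ribosomal protein gene of spermatogenesis, had 1.48 and Xlr3c 1.16. Xlr3a, by contrast, had 0.30, with 0 to 184 TPM around a median of 75.9. Aurkc had 0.89. In other lists, Id2 had an excess of 1.04 in 2i at 0 to 186 TPM with a median of 11.75 TPM and 71 of 94 cells at a TPM of at least 1. Ddit3, a stress factor of 63 cells, had 0.85. S100a1, a calcium-binding protein, was detected in 73 cells at up to 196 TPM with 1.40. Pglyrp1, a peptidoglycan recognition protein, was detected in 71 cells with 1.24.

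Several of the most variable names cannot be read as single genes. Tpt1 (excess 1.38) and its copy Tpt1p were inversely related over the 94 cells (Spearman -0.55), as were Akr1b3 and Gm6644 (-0.69) and 4930412F15Rik and Serf2 (-0.90). The names Gm12166 and Sft2d1 had a correlation that rounds to 1. Reads of 25 bases may be shared or divided between such copies or overlapping names, so their values are uncertain, as are those of histone genes with near-identical coding sequence. The gene with the largest excess, 2610028H24Rik at 2.48, lay between 0 and 890 TPM with 72 cells at 1 or more. On the serum plates its excess was 2.25 and 0.39, so plates of the same culture differed.

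Whether a gene varied more or less in 2i than in serum was asked with limma on the excess SD of each plate, taken here against all 11087 genes tested. The excess rose in 1.61% of them and fell in 86 genes (0.776%). In 91.6% of the gains the gene was listed at 0 on a serum plate, where it cannot vary, and 14 gains were of genes above 0 on all 4 plates. Of the 86 falls, 70 were likewise of genes listed at 0 on a serum plate, and 11 of genes above 0 on all 4 plates. Hist1h4c gained 1.40, from 0.48 and 0.49 to 1.89, with an adjusted p of 0.0488 (limma), and the Dgcr8KO value was 1.005. Pglyrp1 gained 1.11 and Trpm1, a cation channel, 0.91. Cd274, the ligand PD-L1, gained 0.73, but it was at a TPM of at least 1 in 5 of 94 cells and reached 4194 TPM in the highest of them. Among genes above 0 on all plates, losses were at most 0.41 in size, that of Mnt, a repressor of the Myc network, and Sox12 lost 0.30. With a pseudocount of 5 in place of 1, 0 genes were called by limma, with 2971 at an unadjusted p under 0.05, and with only the genes above 0 on all plates 1311 were called, among them 22 of the 14 gains and 11 falls that such genes had made. The calls of variability therefore depend on these settings.

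Co-variation between cells was taken as the mean Spearman correlation over pairs of genes of a list, across the 94 cells. The cells share a plate, and the number of genes detected differed between them, so the values are descriptions with no p. Over all 5663 genes the mean was 0.006, and 0.588% of pairs exceeded 0.3. It was 0.307 for cytosolic ribosomal proteins, 0.282 for histones, 0.217 for p53 targets, 0.212 for G2/M genes and 0.146 for G1/S genes. For the naive list the mean was 0.065, with 2.34% of pairs above 0.3, for the core list -0.013 and for germline genes 0.009. In the same genes on all plates, 79 ribosomal genes had 0.573 and 0.532 on the serum plates and 0.256 in Dgcr8KO, and 12 histones had 0.439 in 2i, 0.341 and 0.392 in serum and 0.428 in Dgcr8KO. The 10 naive genes high enough on every plate had 0.034 in 2i, 0.119 and 0.124 in serum and 0.043 in Dgcr8KO, while all 2983 such genes had 0.007, 0.097, 0.063 and 0.019. For these 10 genes, a lower value in 2i thus went with a lower value over all genes. Esrrb, Klf4, Tbx3, Prdm14 and Tet2 are not among them, being too low in serum.

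**Figure D4:**
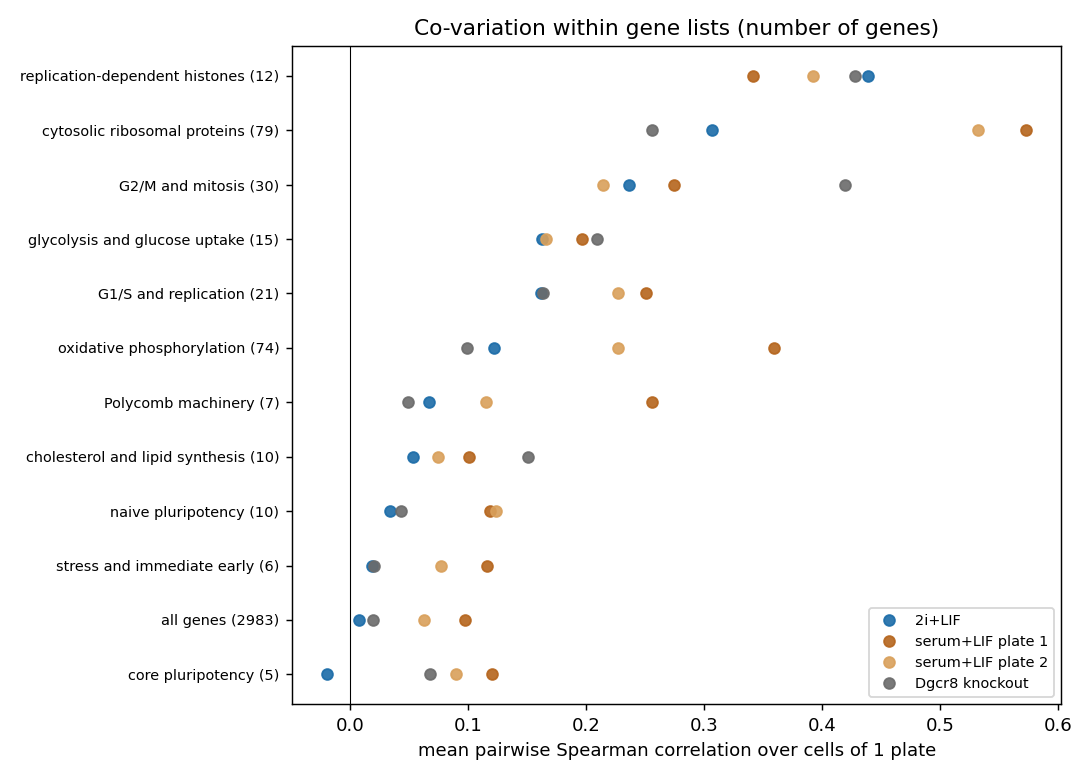
Mean pairwise Spearman correlation between genes of a list over the cells of each plate, for genes ranked on all 4 plates, with the number of genes in brackets; each point is a plate. The 12 histones (0.439) and 79 ribosomal protein genes (0.307) are highest in 2i, and the 10 naive genes (0.034) lie near all 2983 genes (0.007). These 10 leave out Esrrb, Klf4, Tbx3, Prdm14 and Tet2. The whole naive list of 19 genes had 0.065 in 2i, beside 0.006 over all 5663 genes.

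Naive and core factors hardly tracked each other from cell to cell. Among the 5 markers the highest correlation was 0.26, between Esrrb and Prdm14, followed by 0.15 between Esrrb and Tcl1, and the others lay between -0.06 and 0.13. Over 276 pairs of naive and core genes the highest were Dppa2 with Dppa4 (0.40), Klf4 with Tbx3 (0.34), Esrrb with Tbx3 (0.32) and Zfp42 with Tet2 (0.30). The lowest was Nanog with Pou5f1 at -0.35, which was -0.23 and -0.17 on the serum plates and -0.07 in Dgcr8KO. Nanog correlated best with Chpt1 (0.57), a member of the set described below that varies against ribosomal genes, and Esrrb with Hcfc1 (0.40) and Etv5 (0.38). Klf4 followed Pmm1 (0.47) and the histones Hist2h4 (0.43) and Hist1h2bm (0.40). Dazl was closest to the nucleolar gene Nop56 (0.41) and lowest against Fgf4 (-0.40). Prdm14 was closest to Bysl (0.37) and Tcl1 to Ssr4 (0.39).

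Levels of histone transcripts went together over the cells, within a class and between classes. Among the 500 most variable genes, 8 of the 10 highest pairs were histone pairs, such as Hist1h2ap with Hist1h2ae (0.92), Hist2h4 with Hist1h4d (0.90) and Hist4h4 with Hist2h4 (0.89). Copies within a class may share reads, so sums were formed. The TPM summed over 56 histone genes lay between 137.2 and 14417 per cell with a median of 3345, and 84 of 94 cells had at least 1000. Between classes the sums of H2A and H3 genes correlated at 0.82, those of H2B and H4 at 0.71, those of H1 and H4 at 0.68, and the lowest pair, H1 and H2A, at 0.35. Genes of different classes have different sequences.

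The makeup of the histone transcripts differed from serum. The median H4 sum was 1915 TPM in 2i against 38.3 and 32.1 in serum, while the median H2A sum was 792 TPM against 1375 and 586. Of 50 tested histone genes 19 rose and 7 fell with a median difference of 0.29, and 19 rose and 20 fell when per-cell logs were averaged. The H4 genes Hist2h4, Hist4h4 and Hist1h4d rose by 5.60, 4.45 and 4.12, and Hist1h2ap, Hist1h2ag and Hist1h2af fell by 1.43, 1.89 and 2.74. Hist2h4 lay between 0 and 2676 TPM with a median of 531.5 TPM in 2i, and its serum cells had medians of 0 TPM and reached 101.8 and 53.6 TPM. Dgcr8KO cells had a median H4 sum of 1632 TPM and a mean of 705 TPM for Hist2h4, close to 2i, although they were grown in serum+LIF. The medium and the plate cannot be told apart here. In the bulk 2i library Hist1h2ap had 12.8 TPM, where the mean of the single cells was 600 TPM, and Hist2h4 had 373 and 729 TPM.

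Genes of G2/M formed a second axis. Ccnb1, the mitotic cyclin B1, lay between 152.7 and 1094 TPM in 2i and correlated with Kpna2 (0.70), an importin, Aurka (0.61), the mitotic Aurora kinase, and Nusap1 (0.61), a spindle protein. Plk1, the Polo-like kinase of mitosis, lay between 17.9 and 387 TPM and was closest to Nusap1 (0.59) and Ccnb1 (0.59). Pcna, the sliding clamp of replication, was closest to Rrm2 (0.50), a ribonucleotide reductase subunit. The mean score of G1/S genes and that of G2/M genes were inversely related in 2i (Spearman -0.46), and the histone sum went with G1/S (0.36) and against G2/M (-0.48). On the serum plates G1/S and G2/M scores had 0.36 and 0.27, and the histone sum against G2/M -0.04 and -0.15. The histone sum went with G1/S there too, at 0.432 and 0.433. In Dgcr8KO cells G1/S and G2/M scores had -0.16, and the histone sum had 0.08 with G2/M and 0.24 with G1/S. The number of genes detected correlated with the histone sum at -0.25 in 2i and at 0.06 and 0.26 in serum, and its part in these values was not tested. The G2/M score was the score that went most with the naive score (0.35).

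**Figure D5:**
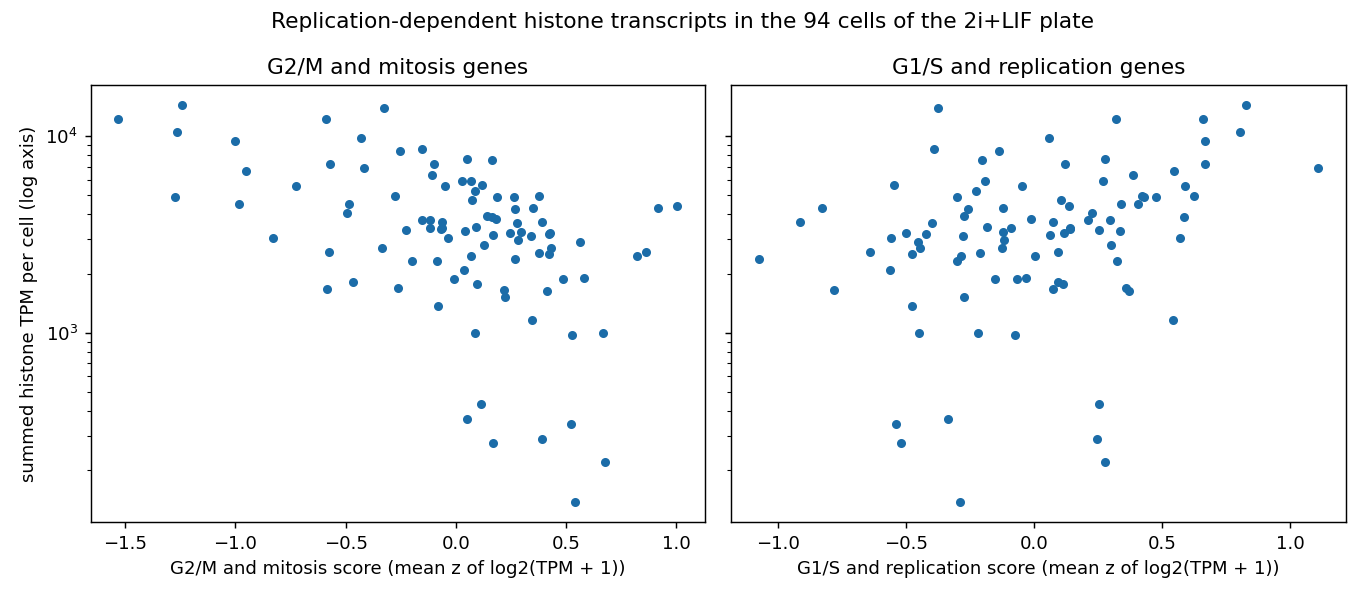
Summed TPM of 56 replication-dependent histone genes (log scale) in each 2i cell against the score of G2/M genes and the score of G1/S genes; each point is 1 of 94 cells. The histone sum falls with the G2/M score (Spearman -0.48) and rises with the G1/S score (0.36), over a range of 137.2 to 14417 TPM.

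The promoters of a pair of G2/M genes and a pair of histone genes are shown because these groups moved against each other and differ in short sequence elements. They are RefSeq sequences of build GRCm38.p6, from 250 bases before to 50 bases after the gene start, at chr13:100786437-100786736 (minus strand) for Ccnb1, chr7:122159185-122159484 (plus) for Plk1, chr13:23571171-23571470 (minus) for Hist1h2ae, named H2ac8 in RefSeq, and chr13:23581318-23581617 (plus) for Hist1h4d, named H4c4. Capitals mark CCAAT, the box bound by NF-Y, on either strand (CCAAT or ATTGG). They also mark TTTGAA (or TTCAAA), the core of the cell cycle homology region, searched in Ccnb1 and Plk1 and found in Plk1. In the histones they mark TATAAA (or TTTATA), the letters of the TATA box. In Hist1h4d these letters lie on the strand of the gene, close to its start. In Hist1h2ae the match is TTTATA, on the other strand and far before the gene start. It can therefore not be read as the TATA box of Hist1h2ae.
Ccnb1: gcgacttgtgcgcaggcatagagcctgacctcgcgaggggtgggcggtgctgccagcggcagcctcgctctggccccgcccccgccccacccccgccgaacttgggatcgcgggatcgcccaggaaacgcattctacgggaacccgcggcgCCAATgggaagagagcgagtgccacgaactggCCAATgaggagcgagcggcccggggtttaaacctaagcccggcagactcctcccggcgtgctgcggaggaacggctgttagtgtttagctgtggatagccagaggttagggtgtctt
Plk1: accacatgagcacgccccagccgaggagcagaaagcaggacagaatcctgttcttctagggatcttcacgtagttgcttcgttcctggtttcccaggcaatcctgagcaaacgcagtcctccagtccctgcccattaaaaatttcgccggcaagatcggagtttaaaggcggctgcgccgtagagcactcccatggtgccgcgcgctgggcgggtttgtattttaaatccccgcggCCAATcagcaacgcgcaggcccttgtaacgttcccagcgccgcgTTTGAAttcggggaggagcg
Hist1h2ae: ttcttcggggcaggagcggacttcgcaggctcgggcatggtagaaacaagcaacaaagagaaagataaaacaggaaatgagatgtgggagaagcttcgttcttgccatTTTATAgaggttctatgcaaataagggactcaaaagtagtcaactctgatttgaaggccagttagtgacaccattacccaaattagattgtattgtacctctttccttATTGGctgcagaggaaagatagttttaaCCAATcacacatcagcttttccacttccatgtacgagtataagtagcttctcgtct
Hist1h4d: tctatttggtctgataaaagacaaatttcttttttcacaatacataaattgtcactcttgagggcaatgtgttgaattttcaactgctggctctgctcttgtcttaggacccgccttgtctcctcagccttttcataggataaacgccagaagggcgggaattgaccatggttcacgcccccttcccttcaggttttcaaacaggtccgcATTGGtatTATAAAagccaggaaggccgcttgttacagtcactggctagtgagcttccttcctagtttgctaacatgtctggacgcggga
Over both strands CCAAT was in 86.8% of 38 matched G2/M promoters (33), in 85.5% of 55 histone promoters (47) and in 41.1% of all 27025 promoters. TTTGAA was in 65.8% of the G2/M promoters (25), 45.5% of the histone promoters and 20.2% of all. TATAAA was in 58.2% of histone promoters (32), 2.63% of G2/M promoters (1) and 15.7% of all. ATTTGCAT, the octamer bound by POU factors, was in 25.5% of histone promoters (14) and 1.97% of all. G1/S promoters, 22 matched, held CCAAT in 59.1% and TTTGAA in 13.6%. A match is a description of letters and says nothing of binding.

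The largest share of variance between 2i cells lay on an axis with few known regulators. The first principal component held 5.10% of the variance of the ranked genes and had a Spearman correlation of 0.18 with the number of genes detected. Its high end was led by Churc1, H2-T23, Hlcs, Zfp935, Hook2 and Zmynd8 and its low end by Rpl7, Rpl9, Eef1a1, Rps14 and Ran. Churc1, a zinc finger gene, was the transcript with the highest mean, 56175 TPM, and lay between 8465 and 95424 TPM. A score of Churc1, Chpt1, Zmynd8 and Unc13d, chosen after this axis was seen, had correlations of -0.78 with oxidative phosphorylation and -0.68 with ribosomal proteins, which went together at 0.76. TPM are shares of a fixed total, and its part in these inverse relations was not tested. A single cell, in well H11, had a score of -5.25, where the next lowest was -2.23 in well E10. The H11 cell also had the fewest genes detected, 8122, and its part in this axis was not tested. Zmynd8 had means of 15032 and 743 TPM on the serum plates and 7556 TPM in 2i, so its level differed between plates of the same culture more than between cultures. The name 4930412F15Rik, which cannot be read as a single gene, was closest to Zmynd8 (0.80) and Churc1 (0.71). Its inverse partner Serf2 lay at the low end of the axis (-0.57). The part of reads shared between names in this axis was not tested. The second component held 2.81%, with Cdc45 and H2afv at an end and Malat1, Cytb and mt-Nd4 at the other.

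Some single pairs were among the nearest neighbours of named genes. Cytb, a mitochondrial transcript, correlated with Atpase6 (0.85) and mt-Nd4 (0.85), which share the mitochondrial genome. Chac1, a glutathione-degrading enzyme, followed Trib3 (0.46) and Atf4 (0.43), and Ddit3 followed Nupr1 (0.38), all genes of the integrated stress response. Over the whole stress list the mean correlation was 0.051, below that of the naive list. Of its 66 pairs 7 (10.6%) were above 0.3, beside 2.34% of naive pairs and 0.588% of pairs over all genes. Mdm2, the ligase that degrades p53, was close to Cdkn1a (0.37). The stress score was inversely related to mitochondrial transcripts (-0.38). Xlr genes went with the score of germline genes (0.66), a list that holds them, and Id2 was closest to Ptges (0.40).

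ChIP-seq of 2i cultures adds 1 library per mark, without replicates. The deposited table counts reads in a window for each gene (build mm9, 1000 bases long), and the counts are given here as CPM, scaled to the library total, which was 9687863 counts for H3K4me3 in 2i and 15315269 in serum. Over all 23167 windows the median H3K4me3 was 13.2 CPM in 2i. Ranked genes with a window, 5341 of them, had a median of 89.6 CPM, and the 51 windows of genes with an excess SD of at least 1 had 24.4 CPM, or 15.999 CPM over 36 windows without histones. The most variable genes thus had less H3K4me3 than the median ranked gene. Their median H3K27me3, the Polycomb mark, was 30.99 CPM beside 23.2 for ranked genes. The median of all windows in that library was 16 of 516249 counts, which is also 30.99 CPM. The variable genes thus lay at the median of all windows for this mark. In serum, the same 51 windows had 20.2 CPM of H3K4me3 where ranked genes had 86.6. Naive genes had a median of 54.4 CPM of H3K4me3 and 97.2 CPM of H3K27ac in 2i, against 34.9 and 55.4 in serum. Windows of 62 histone genes had a median of 627 CPM of RNA polymerase II in 2i and 835 in serum, where ranked genes had 64.3 and 67.02, and neighbouring histone windows may overlap.

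Several genes of the level comparison differed in these single libraries as well. Id1 had 6.19 CPM of H3K4me3 in 2i against 76.3 in serum and 93.9 in Dgcr8KO, Lin28a 4.13 against 75.3 and 24.6, Dnmt3l 3.20 against 21.8 and 16.7, and Myc 24.5 against 70.9 and 42.9. Lower H3K4me3 thus went with lower transcript levels for these 4 genes in 2i, though Id1 kept the mark in Dgcr8KO cells. Nupr1 had 32.6 CPM against 3.53 in serum, Tcl1 26.4 against 4.96, and Aurkc 3.30 against 0.849. Prdm14 had 109.1 CPM of H3K27ac in 2i against 27.8 in serum and 30.99 CPM of H3K27me3 against 141.1. Esrrb had 20.7 CPM of H3K4me3 in 2i and 20.6 in serum, so that the mark in this window did not follow its transcript.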

How the data were processed

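Single-cell RNA of 361 mESCs on 4 plates, bulk RNA and ChIP-seq were analysed. Values in the deposited single-cell and bulk tables are on a natural log scale, ln(TPM + 1), as the totals after reversal show, and were turned back into TPM. The deposited ChIP table holds counts of reads per window, 1 library per mark and condition, used as deposited. Per the submitters' processing notes, Bowtie, RSEM and mm9 were used; no source used here gives versions, roles, annotation, filters on cells or removal of doublets, and no doublet caller was run. The place of the ChIP window relative to a gene is not stated. Rows named by a date (51 of 22443) were left out, and 7961 names with the values of another name, 1626 of them above 0, were counted once with it.

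The 2i cells, gene lists and tests were chosen with earlier results of these data known. Cells are not replicates, so each plate gave 1 value per gene. The level fit (limma 3.58.1 in R 4.3.3, with trend, residual variance from the serum pair) used log2(mean TPM + 1) with pseudocount 1, centred on the median gene, for genes whose mean TPM over the 4 plates reached 1. A fold on this scale understates the change of low genes. The variability fit used the excess SD over a running median over 100 genes on each side. Other values came from Python 3.11.15 with numpy 2.4.6, pandas 2.3.3 and scipy 1.17.1, and figures from matplotlib 3.10.9. The level fit, the excess SD and the correlations were tried on simulated data, and the variability fit was not. Named genes were the 5 markers, the 10 largest called rises and falls of each fit, the 25 largest excess SDs with their neighbours, the 10 highest pairs, the 10 highest levels, all naive and core genes, and in each list up to 6 members of highest level and 4 of largest excess. Genes above 0 on all plates in the variability fit, Dusp6, Spry4, Myc, Chac1, Trib3, Scd2, Stard4, Dnmt3a, Dnmt3b, Ddx4, Mael, Piwil2, Hist1h2ag, Hist1h2af, Aurka, Nusap1, Plk1, Xlr4b and the genes listed at 0 were named after their values were seen. Alternatives covered scaling, pseudocount, filters, window and cells left out; those restricted to genes above 0 on all plates, and leaving out the cell with the fewest genes, were chosen after seeing the data.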

Additional observations from a re-analysis of the deposited data

How the results depend on the processing

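No paired analysis was possible because the 2i group has 1 plate. The level comparison called 3913 genes, and 1171 with quantile normalisation, 6072 with the plate mean of per-cell logs, 6775 with no filter and 1337 at a mean TPM of at least 10; the other 5 alternatives gave 3066 to 5849. Of the differences of named genes, 444 values were counted as unchanged and 27 lost the call. A further 18 gained it, 12 uncalled values of tested alternatives changed sign, and Dppa2 reversed, to 0.25 without centring. In alternatives with a test, unchanged means the same direction and side of the threshold. With a serum plate left out there is no test, and unchanged means a shift within the SD of the serum pair. An uncalled value meets this by construction. Dppa5a (-0.62 to 0.17) and Fbxo15 (-0.03 to 0.06) changed sign there and were counted as unchanged. As many values of list medians moved by more than the SD between the serum plates as did not. Quantile normalisation ended the calls of Klf4, Prdm14, Tbx3, Pecam1, Fgf4, Tet2, Sox2, Dppa2, Dppa4, Utf1, Nupr1, Crxos1, Krt8 and Plac1, and the cause was not tested. Without centring Plac1, Dppa4 and Utf1 lost theirs. Leaving out either serum plate left no residual degree of freedom, and differences then lay between 2.03 and 2.11 for Esrrb and between -6.75 and -6.60 for Lifr. The variability comparison called 264 genes, and 402 with pseudocount 0.1, 0 with pseudocount 5 (limma; 2971 at an unadjusted p under 0.05), 488 with a running median over 200 genes on each side in place of 100, 2255 with no filter, 550 at a mean TPM of at least 10 (7 shared) and 1311 with only genes above 0 on all plates (22 shared, where 14 gains and 11 falls could be). Genes with an excess SD of at least 1 numbered 75, and 341 with pseudocount 0.1 and 25 with pseudocount 5. Ranking by the squared coefficient of variation shared 17 of 75. Of the 75 genes highest by that ranking, shared or not, 15 were histones. Mean correlations changed from 0.065 to 0.054 with Pearson and 0.060 at a mean TPM of at least 1 for naive genes, from 0.051 to 0.021 for stress genes and from 0.282 to 0.177 for histones at that filter, from 0.146 to 0.127 for G1/S genes given the number of genes detected, and from 0.113 to 0.141 for glycolysis without the 9 cells with the fewest genes. Counts of cells carrying a list at 3 members of TPM 1, and at 2 members of TPM 10, were 94 and 85 for primed epiblast, 67 and 38 for primitive endoderm, 37 and 12 for trophoblast, 84 and 79 for neural and 87 and 93 for fibroblast. Depth is unknown, so low or absent values cannot be told from missed transcripts.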
